A study of Homo sapiens and Mus musculus with 10 samples.

Results

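Remote peaks are accessible sites on the autosomes whose summit lies more than 100 kb from the body of every protein-coding gene in GENCODE release 44. They were chosen by position alone, from the deposited peak list of each human library. They made up 72889 of 687619 autosomal peaks over 8 libraries. The same sites were also read as 32433 merged remote regions, out of 236627 merged regions on the autosomes.

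Large parts of the human genome hold no protein-coding gene and are called gene deserts. Many of them flank genes of developmental regulators, and accessible sites inside them are often enhancers that act over long distances, binding sites of the insulator protein CTCF, or start sites of long non-coding RNAs. Enhancers tend to be open in few cell types, while CTCF sites tend to be open in many. ATAC-seq finds such sites because the Tn5 transposase inserts adapters preferentially into DNA that is not wrapped in nucleosomes.

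The study profiled bulk cell lines without a stated treatment, with 2 libraries of each line, and the 2 libraries of mouse embryonic stem cells were not used here. GM12878 is a B-lymphoblastoid line immortalised with Epstein-Barr virus, and K562 is an erythroleukaemia line. HEK293T derives from embryonic kidney and expresses the large T antigen of SV40, and HFF1 is a line of foreskin fibroblasts. Each line is a single established culture, and nothing in the labels says whether its 2 replicates came from separate cultures, so the spread between them may be technical.

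All 4 marker promoters fixed for each line were open in both of its own libraries, for example CD79A in GM12878, GATA1 in K562, PAX2 in HEK293T and COL3A1 in HFF1. Of the 4, 3 were open in no other line for GM12878, 2 for K562, 2 for HEK293T and 1 for HFF1. Autosomal peaks numbered between 50183, in the second HEK293T library, and 124544, in the first HFF1 library. Depth differed between lines. The background level recovered from the lists, in reads per scan window, was 0.465 and 0.466 in the HEK293T libraries and between 1.71 and 2.43 in the other 6. All values of HEK293T below come from these shallower libraries. The remote share, the share beyond 1 Mb, the sharing between lines and the crowding are also given after the other lists had been thinned at random to the HEK293T background level. Thinning did not equalise list lengths. It left 73280 and 74180 autosomal peaks in GM12878, 72201 and 73157 in HFF1, 50481 and 50183 in HEK293T, and 45068 and 44288 in K562. Densities by distance, clusters, sharing by pairs of lines, transfer RNA genes, chromosomes and gene lists were not thinned.

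8 remote sites, each chosen because it holds a searched motif, illustrate sequences found in some of the peaks. They are windows of hg38 that reach 50 bp to either side of a summit, plus strand, in lower case with the motif of interest in capitals. They were ranked by fold over local background within each library. The first pair are the 2 best-ranked remote regions that were called in all 4 lines and hold the CTCF consensus, which was searched as CCA, AG and GGC with 2 free bases between them, or its reverse complement. The other 6 were specific to 1 line, and each is the best-ranked of its line that holds its motif, which is the consensus of PU.1 (GAGGAAGT) and NF-kappaB (GGG and TTTCC with 2 free bases between them) in GM12878, the GATA family of factors (searched as AGATAAG) in K562, AP-1 (TGANTCA) and TEAD (GGAATGT) in HFF1, and CTCF in HEK293T.
All 4 lines, chr21:15483303-15483403, 247 kb from USP25: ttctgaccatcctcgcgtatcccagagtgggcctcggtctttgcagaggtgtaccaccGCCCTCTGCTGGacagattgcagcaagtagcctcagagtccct
All 4 lines, chr7:113421846-113421946, 303 kb from SMIM30: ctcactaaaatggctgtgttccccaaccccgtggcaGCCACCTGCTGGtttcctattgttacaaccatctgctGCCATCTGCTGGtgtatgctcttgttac
GM12878, PU.1, chr6:94752085-94752185, 825 kb from MANEA: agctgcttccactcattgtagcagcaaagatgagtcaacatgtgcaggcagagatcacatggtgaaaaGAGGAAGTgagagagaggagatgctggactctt
GM12878, NF-kappaB, chr9:32218268-32218368, 166 kb from ACO1: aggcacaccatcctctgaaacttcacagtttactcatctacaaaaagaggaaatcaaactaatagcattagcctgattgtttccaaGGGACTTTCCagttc
K562, GATA, chr13:68708454-68708554, 992 kb from KLHL1: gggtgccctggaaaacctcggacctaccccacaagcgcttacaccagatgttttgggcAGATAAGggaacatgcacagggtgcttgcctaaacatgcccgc
HFF1, AP-1, chr10:57703938-57704038, 488 kb from IPMK: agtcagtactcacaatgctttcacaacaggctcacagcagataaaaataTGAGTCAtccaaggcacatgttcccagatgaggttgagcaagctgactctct
HFF1, TEAD, chr2:160836893-160836993, 300 kb from TANK: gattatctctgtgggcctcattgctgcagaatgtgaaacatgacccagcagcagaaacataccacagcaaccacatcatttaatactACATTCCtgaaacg
HEK293T, CTCF, chr10:81414226-81414326, 461 kb from NRG3: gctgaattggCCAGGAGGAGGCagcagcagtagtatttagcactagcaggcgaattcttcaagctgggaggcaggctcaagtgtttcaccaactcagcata

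The USP25 site was the third-ranked region called in all 4 lines and lies in an unnamed long non-coding RNA gene. Its fold over local background, the authors' own value, was 23.4 in both GM12878 libraries, 13.7 and 14.8 in K562, 17.9 and 19.7 in HEK293T, and 15.6 and 15.3 in HFF1. The SMIM30 site carries 2 matches to the CTCF consensus. The TEAD window near TANK also holds a RUNX match (TGTGGTT, reverse complement) and the PU.1 window near MANEA an AP-1 match, both left in lower case. The GATA site near KLHL1 had folds of 14.9 and 14 in the K562 libraries and no peak in the other 6. The AP-1 site near IPMK had folds of 17.7 and 17.9 in HFF1 and no peak elsewhere. A match is a description of the letters in the window and does not show that a factor binds there.

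Remote peaks were most numerous in HFF1 and fewest in K562 at this distance. The counts were 14190 and 13354 in HFF1, 10496 and 10772 in GM12878, 6385 and 6287 in HEK293T, and 6153 and 5252 in K562. The replicate pairs of HFF1 and GM12878 stand clear of all other libraries, while K562 and HEK293T lie close together. Lines accounted for a share of 0.986 of the variance of the log10 counts (eta squared; exact one-sided permutation test over 105 ways of pairing 8 libraries, p = 0.00952, the smallest possible, adjusted p = 0.0113 over a family of 13 tests). The order depends on the rule. With a distance of 50 kb K562 had more, 9800 ± 1044 against 8930 ± 107 in HEK293T, and with distance from any annotated gene GM12878 came first, with 1106 ± 4.24 against 1047 ± 53.7 in HFF1 (SD, n = 2).

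As a share of the autosomal peaks of a library, the order was different. HEK293T had the highest remote share, 12.65% and 12.53%. HFF1 followed with 11.4% and 11.3%, then GM12878 with 10.6% and 10.7%, and K562 came last with 8.07% and 7.59%. No line overlapped another, and eta squared was 0.995 (exact permutation p = 0.00952, adjusted p = 0.0113). After thinning, the shares were 12.6% ± 0.085 in HEK293T, 10.2% ± 0.0114 in HFF1, 9.70% ± 0.0329 in GM12878 and 6.73% ± 0.100 in K562 (SD, n = 2), in the same order. GM12878 stood above HFF1 with a distance of 200 kb, 6.33% ± 0.0216 against 5.86% ± 0.00115, and with distance from any annotated gene, 1.11% ± 0.0199 against 0.864% ± 0.00985 (SD, n = 2). With the 40000 strongest peaks of each library by −log10 p, HEK293T had the most remote peaks in number as well, 4681 ± 9.90, against 3384 ± 50.9 in HFF1 (SD, n = 2). This cut removed far more of the HFF1 lists, of 124544 and 117703 autosomal peaks, than of the HEK293T lists, of 50482 and 50183.

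**Figure D1:**
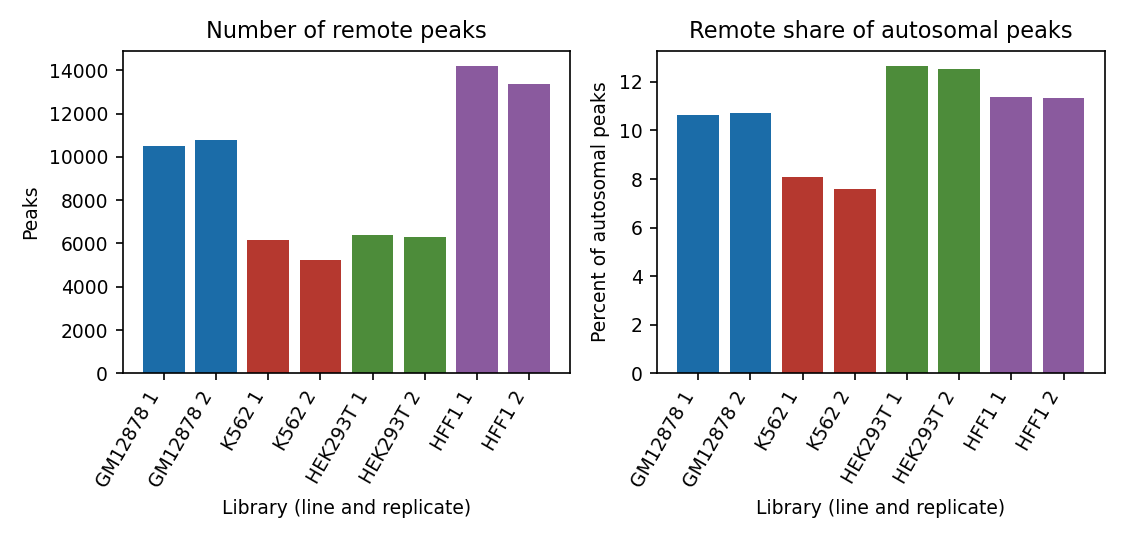
Number of remote peaks (left) and their percentage among the autosomal peaks of the library (right), with a bar for each of the 8 libraries coloured by line. HFF1 has the tallest bars on the left, at 14190 and 13354, and HEK293T on the right, at 12.65% and 12.53%.

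Genome positions more than 100 kb from protein-coding genes cover 788 Mb, which is 28.6% of the 2756 Mb of determined autosomal sequence. Remote peaks were therefore sparser than other autosomal peaks in every library. The density of other autosomal peaks over that of remote peaks was 2.78 ± 0.0214 in HEK293T, 3.12 ± 0.0105 in HFF1, 3.35 ± 0.0160 in GM12878 and 4.72 ± 0.221 in K562 (SD, n = 2). Peaks just inside the 100 kb threshold resembled those just outside it. Each library had 303 to 992 peaks from 100 to 110 kb, with a median fold between 5.92 and 8.19, and 389 to 1220 peaks from 90 to 100 kb, with a median fold between 5.99 and 8.13.

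Density kept falling with distance, but at different rates in the 4 lines. HFF1 was densest within 10 kb of a gene, with 85.9 ± 2.91 peaks per Mb, and still had 31.6 ± 1.46 at 100 to 200 kb, but only 8.30 ± 0.265 at 500 kb to 1 Mb and 2.31 ± 0.114 beyond 1 Mb. GM12878 went from 76.8 ± 0.520 within 10 kb to 20.5 ± 0.402 at 100 to 200 kb and 6.53 ± 0.0286 beyond 1 Mb. K562 went from 67.7 ± 2.64 to 13.9 ± 1.42 and 2.48 ± 0.280. HEK293T had the lowest density near genes, 48.5 ± 0.0469, and one of 10.6 ± 0.117 at 100 to 200 kb, but held 4.55 ± 0.160 beyond 1 Mb, above both HFF1 libraries and both K562 libraries (peaks per Mb, SD, n = 2). The fall from within 10 kb to beyond 1 Mb was thus 37.3-fold ± 0.589 in HFF1 and 10.7-fold ± 0.386 in HEK293T.

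**Figure D2:**
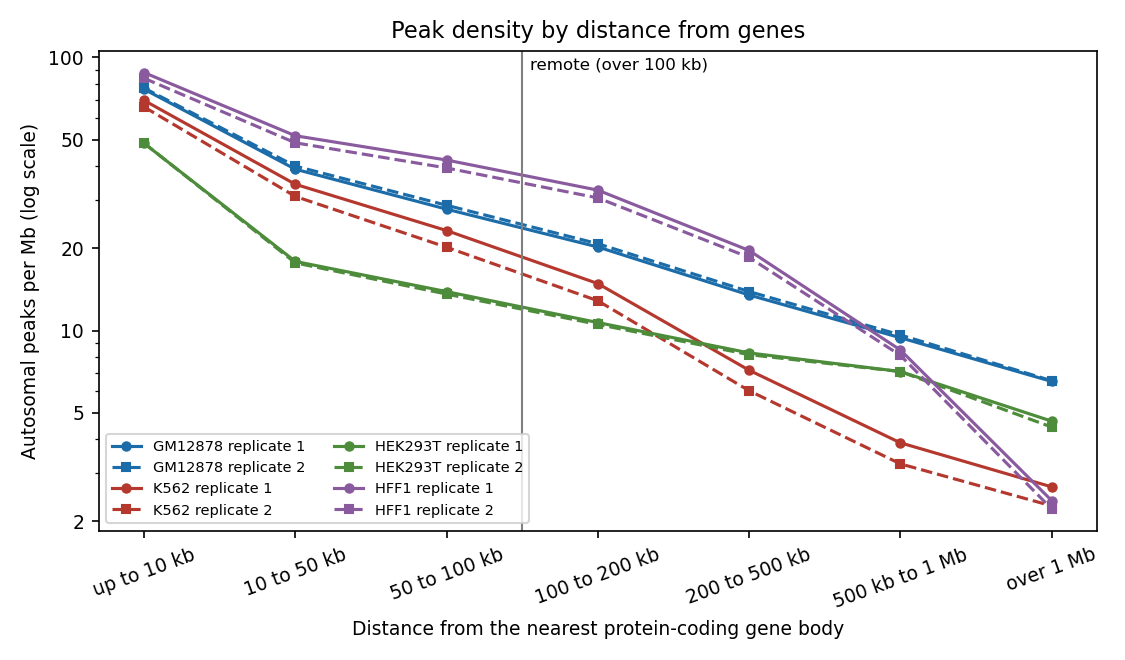
Autosomal peaks per Mb (log axis) against distance from the nearest protein-coding gene body in 7 classes, with a line for each library. The HFF1 lines start highest, at 85.9 peaks per Mb on average, and end lowest with K562, at 2.31, while the HEK293T lines start lowest and cross both.

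The most distant peaks were also counted as a share. Of the remote peaks, 9.02% and 8.72% lay more than 1 Mb from every protein-coding gene in HEK293T, 7.67% and 7.52% in GM12878, 5.38% and 5.37% in K562, and 2.08% and 2.06% in HFF1. Replicates differed by at most 0.305 percentage points and lines did not overlap. This measure was added after the densities had been seen and was not tested. With thinned lists the shares were 8.87%, 7.45%, 5.2% and 1.76% in the same order. The median distance of a remote peak from a gene was 276 kb in both HEK293T libraries, 241 kb in both GM12878 libraries, 204 and 205 kb in HFF1, and 197 and 194 kb in K562.

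The remote territory forms 1482 separate stretches with a median length of 225 kb, and the longest spans 6.02 Mb. No library had a remote region in 116 of them, which were short, with a median length of 17.1 kb. The 233 stretches over 1 Mb held 59.8% of the territory but 40.4% of the merged remote regions. Regions are described as called in a line when both of its libraries had a peak in them, which over all merged autosomal regions was the case for 36.1% in GM12878, 24.7% in K562, 16.3% in HEK293T and 42.3% in HFF1. The richest stretch was the 2.48 Mb between CITED2, a transcriptional co-regulator, and NMBR, the neuromedin B receptor, at chr6:139474649-141958329. It held 219 merged regions, of which 55 were called in GM12878, 38 in K562, 33 in HEK293T and 79 in HFF1.

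Other rich stretches were open unevenly. The 1.81 Mb between MYC, the proto-oncogene transcription factor, and GSDMC held 211 merged regions, with 90 called in HFF1 and 13 in HEK293T. The 1.41 Mb between RNF144A and ID2, an inhibitor of DNA binding by basic helix-loop-helix factors, held 181, with 82 called in GM12878 and 5 in HEK293T. The 1.93 Mb between the atypical cadherin gene FAT4 and INTU held 176, with 65 called in HFF1 and 14 in HEK293T. In the 4.50 Mb between AGA and TENM3, a teneurin adhesion gene, 165 regions were found, and there HEK293T with 49 and GM12878 with 50 exceeded HFF1 with 26 and K562 with 7.

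Remote peaks had a median fold close to that of intergenic peaks nearer to genes, on a lower pileup of reads. Those comparison peaks, called near intergenic, lay outside protein-coding genes, at most 100 kb from one and more than 1 kb from a start site, and numbered 195225. The median log2 fold of remote peaks was 2.90 and 2.89 in GM12878, 2.57 and 2.66 in K562, 2.97 and 2.98 in HEK293T, and 2.68 and 2.71 in HFF1. The difference from near intergenic peaks was -0.04 in HEK293T replicate 1, 0.03 in GM12878 replicate 1 and between those in the other 6 libraries. Remote was higher in 3 libraries, lower in 3 and equal in 2 (exact sign-flip permutation test over 4 lines, two-sided p = 1, adjusted p = 1). The median pileup recovered at remote peaks was lower in 8 of 8 libraries, at 23 against 33 reads in both GM12878 libraries, 22 in both K562 libraries against 28 and 27, 12 and 13 against 14 in HEK293T, and 26 and 24 against 31 and 28 in HFF1. Remote peaks were also narrower in 6 of 8 libraries. Neither difference was tested.

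They were found again a little less often in the other replicate of the same line. The share found again was 86.4% and 84.0% in GM12878, 71.3% and 84.2% in K562, 73.8% and 75.4% in HEK293T, and 80.8% and 86.5% in HFF1. This was below the near intergenic share in 8 of 8 libraries, by 3.66 percentage points on average and by 1.68 to 6.12 in single libraries. With 4 lines the two-sided exact permutation test cannot go below p = 0.13, the value it gave here (adjusted p = 0.167).

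Remote peaks were found less often in other lines than near intergenic peaks were. The share that overlapped a peak of a library of another line was 61.8% and 61.2% in HEK293T, 52.8% and 54.0% in K562, 41.1% and 41.2% in GM12878, and 25.8% and 26.0% in HFF1. Near intergenic peaks of the same libraries reached 86.6% and 87% in HEK293T, 65.4% and 67.5% in K562, 57.3% and 56.7% in GM12878, and 44% and 45.0% in HFF1. Remote was lower in 8 of 8 libraries, by 18.2 percentage points on average and by 25.3 in HEK293T (exact sign-flip permutation p = 0.13, the smallest possible, adjusted p = 0.167).

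Among the lines the sharing of remote peaks had an eta squared of 0.999 (exact permutation p = 0.00952, adjusted p = 0.0113). A line with few peaks is compared against larger lists, so the order depends on list length. Thinning left K562, not HEK293T, with the shortest lists. After thinning, the share was 52.2% ± 0.143 in HEK293T, below the 56.6% ± 1.00 of K562, with 42.2% ± 0.510 in GM12878 and 27.8% ± 0.181 in HFF1 (SD, n = 2). With 40000 peaks per library HEK293T fell further, to 40.9% ± 0.155, while K562 stood at 54.1% ± 0.933 and HFF1 stayed lowest at 28.5% ± 0.157 (SD, n = 2). The near intergenic share of HEK293T was still the highest of the 4 lines in both settings, at 80.3% ± 0.0769 and 74.7% ± 0.0781 (SD, n = 2).

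**Figure D3:**
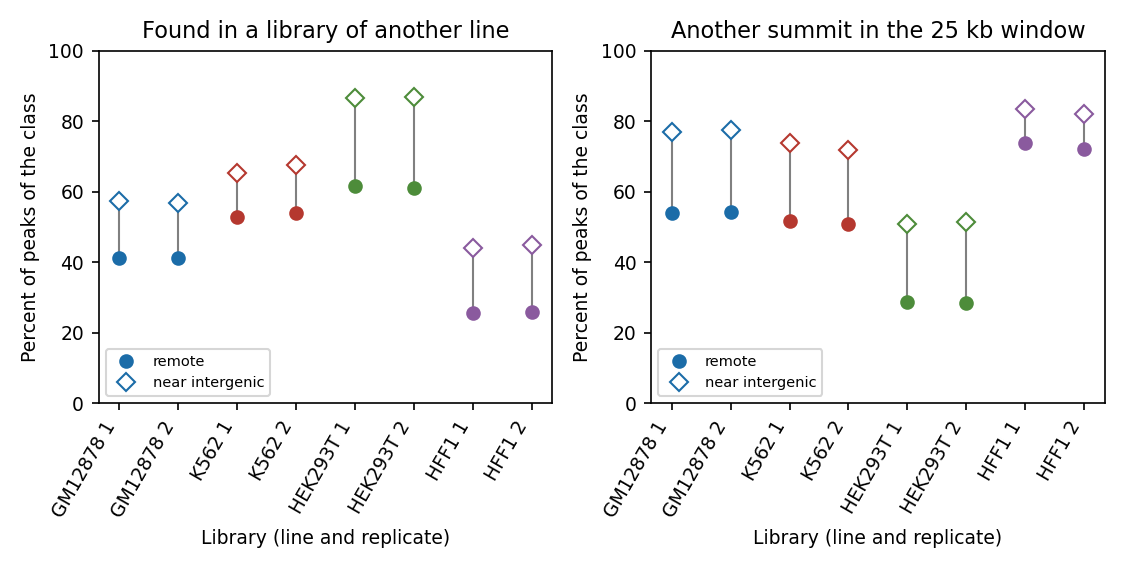
Percentage of remote peaks (filled circles) and near intergenic peaks (open diamonds) that overlapped a peak of another line (left) or had another summit of the same library in the 25 kb window centred on their own (right), for each of the 8 libraries. Circles lie below diamonds in every library on both sides, and the distance on the left is widest in HEK293T, at 25.3 percentage points on average.

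Merged regions show how many lines opened each remote site. Of the 32433 remote regions, 22382 were called in at least 1 line. Of these, 17993 (80.4%) were called in a single line and 649 (2.90%) in all 4. Near intergenic regions had 68.6% in a single line and 9.59% in all 4.

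In each line a larger part of the called remote regions was specific, meaning that no library of another line had a peak there. In HFF1 11194 remote regions were called, 34.5% of all remote regions against 42.3% of all merged autosomal regions, and 8031 were specific, 24.8% against 21.4%. GM12878 had 8932 called, 27.5% against 36.1%, and 4997 specific, 15.4% against 14.7%. K562 had 4305 called, 13.3% against 24.7%, and 1826 specific, 5.63% against 6.27%. HEK293T had 4666 called, 14.4% against 16.3%, and 1441 specific, 4.44% against 1.74%.

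Read as a share of the called regions, 71.7% were specific in HFF1, 55.9% in GM12878, 42.4% in K562 and 30.9% in HEK293T. The near intergenic counterparts were 51.8%, 39.8%, 28.5% and 9.13%. The place of HEK293T depends on list length. With 40000 peaks per library 53.2% of its called remote regions were specific, 1894 of 3557, against 44.5% in K562, 885 of 1991. After thinning, which left K562 with the shortest lists, the shares were 40.0% in HEK293T and 38.6% in K562. HEK293T was thus no longer the lowest in either setting. With the full lists, the 1441 specific remote regions of HEK293T outnumbered its 885 specific near intergenic regions, although it had 9698 called near intergenic regions against 4666 remote ones. Its specific remote regions were 35.1% of all its 4108 specific regions.

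Sharing between pairs of lines was uneven. GM12878 shared 2120 called remote regions with HEK293T, 1910 with HFF1 and 1532 with K562. The 2120 were 23.7% of the GM12878 remote regions and 45.4% of those of HEK293T. Of its near intergenic regions, by contrast, GM12878 shared 28.4% with HEK293T, 39.2% with K562 and 42.1% with HFF1. HEK293T shared 30.8% of its remote regions with K562, against 71.5% of its near intergenic regions. These differences between pairs were not tested.

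Remote peaks were also less crowded than near intergenic peaks. The share with another summit of the same library in the 25 kb window centred on the peak's own summit was 73.7% and 72.3% in HFF1, 53.9% and 54.3% in GM12878, 51.8% and 50.9% in K562, and 28.7% and 28.6% in HEK293T. Near intergenic peaks had shares of 50.8% and 51.4% in HEK293T, 73.8% and 71.7% in K562, 77.0% and 77.5% in GM12878, and 83.3% and 82.2% in HFF1, and remote was lower in 8 of 8 libraries, by 19.2 percentage points on average (exact sign-flip permutation p = 0.13, the smallest possible, adjusted p = 0.167). HFF1 had the smallest gap, 9.76 ± 0.222 percentage points lower in remote peaks, against 21.4 to 23.2 in the other lines (SD, n = 2). Between lines eta squared was 0.999 (exact permutation p = 0.00952, adjusted p = 0.0113).

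Crowding depends on the number of peaks, and thinning lowered it. The thinned shares were 54.4% ± 0.916 in HFF1, 44.6% ± 0.896 in GM12878, 36.1% ± 0.656 in K562 and 28.6% ± 0.111 in HEK293T (SD, n = 2). With 40000 peaks per library they were 32.8% in HFF1, 32.0% in K562, 26.1% in GM12878 and 21.9% in HEK293T, so that HFF1 and K562 differed by less than a percentage point there.

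When neighbouring called remote regions were joined over gaps no longer than the reach of that window to either side, HFF1 formed 1185 clusters of 3 or more regions, GM12878 593, K562 250 and HEK293T 84. These clusters held 42.8% of the called remote regions of HFF1, 25.8% of GM12878, 21.9% of K562 and 5.94% of HEK293T. Single regions made up 79.1% in HEK293T and 32.7% in HFF1. The largest HFF1 cluster had 14 regions over 68.8 kb at chr2:43018120-43086955, 170 kb from ZFP36L2, a zinc finger protein that promotes decay of AU-rich messenger RNAs. Within that span 5 regions were called in GM12878, 5 in K562 and 2 in HEK293T, and these need not be the same regions. A second HFF1 cluster of 14 lay 177 kb from MYC within the PVT1 long non-coding RNA gene and its surroundings.

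The largest GM12878 clusters had 13 regions each. One, at chr15:70460048-70513104, lay 168 kb from UACA in the LINC02205 gene. Within its span 8 regions were called in HFF1, 5 in K562 and 3 in HEK293T. The other lay at the CASC19 and PCAT1 long non-coding RNA genes, 132 kb from POU5F1B, and there 2 regions were called in K562, 1 in HEK293T and 1 in HFF1. In K562 a cluster of 11 regions at chr6:43910772-43986856 lay 162 kb from VEGFA, the vascular endothelial growth factor gene, in LINC01512 and SCIRT. Within that span 7 regions were called in HFF1, 4 in GM12878 and 3 in HEK293T.

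The largest cluster of K562 and of HEK293T was at transfer RNA genes. The K562 cluster had 18 regions over 83.4 kb at chr6:28719625-28803051, 142 kb from TRIM27, and the span holds 13 transfer RNA genes. The HEK293T cluster of 10 regions, at chr6:28734923-28803051, lay inside it and held 10 of the genes. In the K562 span 8 regions were called in GM12878, 11 in HEK293T and 4 in HFF1. The second HEK293T cluster, of 6 regions at chr6:27575935-27618228 near ZNF184, also spans 6 transfer RNA genes. Transfer RNA genes are transcribed by RNA polymerase III and can be open without a protein-coding gene nearby.

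Of 439 transfer RNA genes on the autosomes, 64 were more than 100 kb from every protein-coding gene, 46 of them on chromosome 6 and 12 on chromosome 1. A called remote region lay within 500 bp of 36 of the 64 in K562, of 30 in HEK293T, of 21 in GM12878 and of 12 in HFF1. Of all merged remote regions, HFF1 had 34.5% called, GM12878 27.5%, HEK293T 14.4% and K562 13.3%. HFF1 thus had the fewest of these sites although it had the most remote regions. Transfer RNA genes closer to protein-coding genes were not counted by line. Whether the order is particular to the remote ones was therefore not tested. HEK293T had more than GM12878 at its lower depth. These counts have no replicate test, since a call already uses both replicates.

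Remote peaks lay inside long non-coding RNA genes more often than near intergenic peaks did. The share was 39.0% in both GM12878 libraries, 41.4% and 42.1% in K562, 35.7% and 35.4% in HEK293T, and 43.6% and 43.4% in HFF1, against 24.4% to 25.3% for near intergenic peaks. Remote was higher in 8 of 8 libraries. How much of each territory such genes cover was not set beside these shares. Close to a long non-coding start site, within 1 kb, the picture was mixed. K562 had more remote than near intergenic peaks there, 9.87% and 10.7% against 8.91% and 9.40%, while the other 6 libraries had fewer, down to 6.0% against 10.6% in HEK293T replicate 1. Only 6.68% to 12.6% of remote peaks were more than 100 kb from any annotated gene, non-coding genes included, lowest in K562 and highest in HEK293T.

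The base composition of these windows was lower in G and C at remote peaks. The median GC content was 45.5% in both GM12878 libraries, 51.5% and 52.5% in K562, 50.5% in both HEK293T libraries and 44.6% in both HFF1 libraries. It was 1.98 to 4.95 percentage points below that of near intergenic peaks in 8 of 8 libraries. Peaks within 1 Mb of an assembly gap of at least 100 kb, where alignment is less certain, made up 2.60% and 2.68% of remote peaks in K562, 1.85% in each HEK293T library, 1.36% and 1.34% in GM12878, and 0.423% and 0.337% in HFF1. Of the 788 Mb of remote territory, 33.0 Mb lies that close to a gap. Remote peaks were sparser there in every library, for example 4.85 against 7.93 per Mb in K562 replicate 1.

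Chromosomes differed in how many remote peaks they held for their remote territory. Chromosome 6 was above the average of the library in all 4 lines, from 1.26 times in GM12878 replicate 1 to 1.63 times in K562 replicate 2. Chromosome 19, the most gene-dense, was below it in all, with only 11 and 9 remote peaks in GM12878 and 39 and 34 in K562. Chromosome 13 divided the lines. HEK293T had 1.77 times its remote average there in both libraries, GM12878 had 0.929 and 0.953 times, HFF1 0.641 and 0.658 times, and K562 0.528 and 0.520 times. Peaks that were not remote showed less of this, with 0.936 and 0.949 times the average on chromosome 13 in HEK293T and 0.656 and 0.628 times in K562.

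Motif content differed between lines, but not every motif separated all of them. The consensus sequences of 9 motifs were searched on both strands within 50 bp of each summit, and the same letters read backwards served as background. RUNX was TGTGGTT, IRF was a GAAA repeat with 2 free bases between and the POU octamer was ATGCAAAT. Matches of different motifs rarely overlapped, in at most 17 of 32433 remote regions for any pair. Eta squared between lines was at least 0.9915 for each of the 9 motifs (exact permutation, adjusted p = 0.0286 for RUNX, 0.0206 for PU.1 and 0.0113 for the other 7).

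AP-1 dimers of FOS and JUN proteins bind TGANTCA. This motif was in 22.7% and 22.9% of the HFF1 remote peaks, in 12.6% and 12.4% in GM12878, in 11.3% and 11.0% in K562 and in 4.73% and 5.41% in HEK293T. The background was 2.02% to 3.74%. Near intergenic windows had it in 4.68% to 19.4%, less than remote windows in 8 of 8 libraries, by 3.58 ± 0.303 percentage points in HFF1 and 0.356 ± 0.436 in HEK293T (SD, n = 2), the latter within the replicate spread.

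CTCF followed another order. Its consensus was in 13.2% and 13.1% of the HEK293T remote peaks, 9.23% and 9.52% in K562, 8.38% and 8.24% in GM12878, and 3.44% in both HFF1 libraries, with a background of at most 0.0783%. It was less frequent in remote than in near intergenic windows, which held it in 7.18% to 16.7%, in 8 of 8 libraries and by 3.03 percentage points on average. By number, HEK293T had 841 and 821 remote peaks with the motif, GM12878 880 and 888, K562 568 and 500, and HFF1 488 and 459.

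CTCF was concentrated in the remote regions that all lines shared. Of the 649 remote regions called in all 4 lines, 166 (25.6%) held the consensus, close to the 25.9% of near intergenic regions called in all 4. Among line-specific remote regions the share was 5.97% in HEK293T, 1.40% in GM12878, 1.31% in K562 and 0.511% in HFF1. The 2 sequences shown for all 4 lines are of this kind, while the one for HEK293T was specific to that line.

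The motifs of several lineage factors also differed between lines. Activity of the factors themselves was not measured. GATA factors, among them the erythroid regulator GATA1, bind AGATAAG. It was in 5.98% and 6.04% of the K562 remote peaks and in 0.891% to 1.69% in the other 6 libraries, with a background of 0.557% to 1.20% and 0.782% to 4.67% in near intergenic windows. HEK293T, with 1.61% and 1.69%, was above its own background of 0.579% and 0.557%, while GM12878 and HFF1 were close to theirs. Among regions specific to K562 the share was 11.7% for remote and 11.5% for near intergenic regions.

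GM12878 had the highest share of RUNX, PU.1, IRF, NF-kappaB and the POU octamer, which are motifs of factors with known roles in B cells. RUNX was in 6.02% and 6.24%, IRF in 5.79% and 5.77%, PU.1 in 3.52% and 3.33%, NF-kappaB in 2.37% and 2.59%, and the octamer in 1.90% and 1.78%. The next line was HFF1 for RUNX with 4.72% and 4.46%, for IRF with 2.01% and 1.95% and for NF-kappaB with 1.45% and 1.5%. IRF has a high background of 2.80% and 2.58% in GM12878. Near intergenic windows of GM12878 held IRF in 3.77% and 3.68% and RUNX in 4.82% and 4.88%, less than the remote ones, but the octamer in 1.88% and 1.97% and NF-kappaB in 2.23% and 2.17%, at similar levels.

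TEAD factors, the partners of YAP in the Hippo pathway, bind GGAATGT. This motif was in 3.10% and 3.33% of the HFF1 remote peaks, 1.68% and 1.65% in HEK293T, 1.17% and 0.895% in K562, and 0.667% and 0.622% in GM12878. The GM12878 values were below the background of 0.896% and 0.947% there. Near intergenic windows held it in 0.636% to 2.75%.

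**Figure D4:**
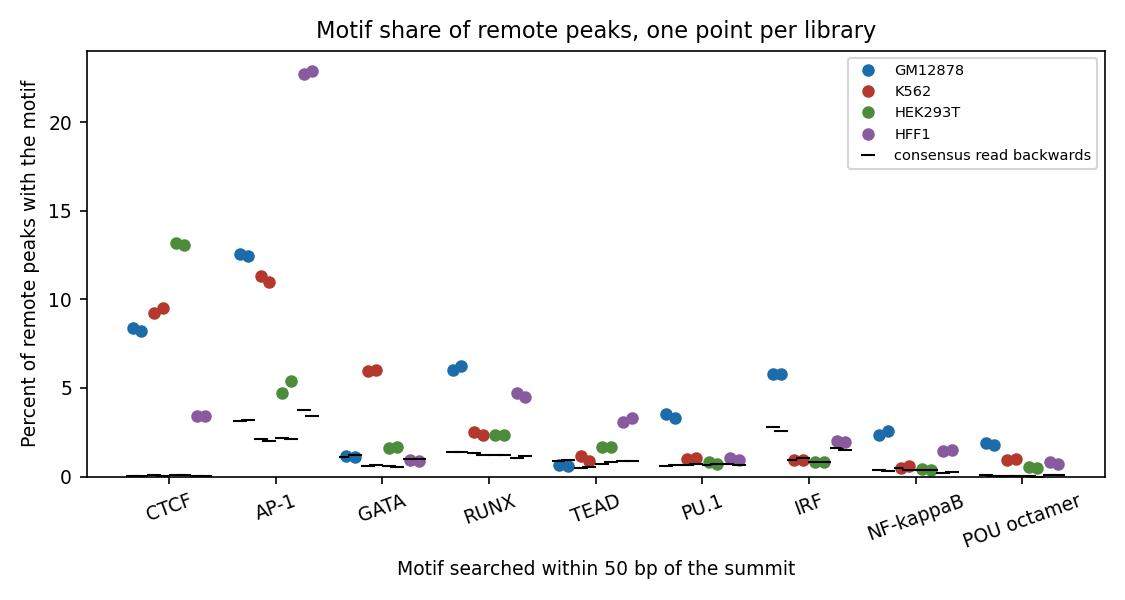
Percentage of remote peaks with each of 9 motifs within 50 bp of the summit, with a circle for each library coloured by line and a dash for the same consensus read backwards. AP-1 in HFF1, at 22.7% and 22.9%, is the highest pair, CTCF is highest in HEK293T, GATA in K562, and RUNX, PU.1, IRF, NF-kappaB and the POU octamer in GM12878.

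The best-ranked specific region of each line had none of the 9 motifs. The best-ranked GM12878-specific region, at chr13:80873604-80874066, 533 kb from SPRY2, had folds of 22.2 and 22.9 and lies in an unnamed long non-coding RNA gene. The best K562-specific region, at chr7:65558630-65558981, 158 kb from ZNF92, had folds of 19.3 and 19.5. The best HEK293T-specific region, at chr3:89852048-89852337, 370 kb from the ephrin receptor gene EPHA3, had 21.5 and 17.8. The best HFF1-specific region, at chr3:178097431-178098007, 175 kb from KCNMB2, a potassium channel subunit gene, had 18.1 and 19.6. The best region called in all 4 lines, at chr5:21459260-21459922, 291 kb from the cadherin gene CDH12, had folds of 25 and 22.6 in GM12878, 18.8 and 17.8 in K562, 21.7 and 19.4 in HEK293T, and 17.8 and 20.3 in HFF1. It holds the PU.1 motif and lies in GUSBP1, which belongs to a family of near-identical copies, so its reads may be shared with them.

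Each remote region was then assigned to its nearest protein-coding gene, which need not be the gene it acts on. Of 19111 autosomal protein-coding genes, 2519 were nearest to some remote territory. Of these, 1698 (67.4%) had a called region in GM12878, 1585 (62.9%) in HFF1, 1411 (56.0%) in HEK293T and 1293 (51.3%) in K562. HFF1 had more regions for fewer genes than GM12878.

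The gene with the most remote regions in GM12878 was TMEM121, with 89, and its remote territory holds the immunoglobulin heavy chain locus, whose segments are not annotated as protein-coding genes. K562 had 29 called regions there, HEK293T 38 and HFF1 0. Of the 89, 53 were specific to GM12878. The second-ranked HEK293T-specific region, at chr14:106334874-106335342, 805 kb from TMEM121 and 0.549 Mb from a gap, had folds of 18.1 and 17.7. Peaks within 100 kb of any immunoglobulin or T-cell receptor gene made up 2.05% and 2.02% of the remote peaks in GM12878, 2.10% and 2.11% in K562, 1.88% and 1.91% in HEK293T, and 0.543% and 0.554% in HFF1.

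Next in GM12878 were ID2 with 52 regions, SPRY2, an inhibitor of receptor tyrosine kinase signalling, with 48, the sortilin-family receptor gene SORCS1 with 43 and the nuclear receptor gene NR2F2 with 42. ID2 had 11 regions in K562, 5 in HEK293T and 30 in HFF1. SPRY2 had 39 in HEK293T but 5 in K562 and 12 in HFF1. SORCS1 had none in K562, 11 in HEK293T and 14 in HFF1.

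In HFF1 the leading genes were MYC with 60 regions, TMEM132C with 57, the mesenchymal cadherin gene CDH11 and CITED2 with 54 each, and ZNF608 with 52. CDH11 had 12 regions in GM12878, 4 in K562 and 1 in HEK293T, and 49 of its 54 were specific to HFF1. TMEM132C had 6, 19 and 11 regions in GM12878, K562 and HEK293T. MYC had 38 in GM12878, 32 in K562 and 9 in HEK293T, and 42 of its 60 were specific to HFF1.

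The K562 list was led by MYC and DEFB115, a beta-defensin gene, with 32 each. CITED2 with 31, TMEM121 with 29 and TPTE with 25 followed. Of the DEFB115 regions, 18 were specific to K562, against 3 in each of the other lines. TPTE had 17 specific to K562, 8 to GM12878, 2 to HEK293T and none to HFF1. The remote territory nearest to DEFB115 was 2.415 Mb and that nearest to TPTE 5.31 Mb, against a median of 0.129 Mb over all genes. Whether reads align uniquely in these 2 territories was not examined.

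In HEK293T the protocadherin gene PCDH9 had 41 regions, SPRY2 39, TMEM121 38, TENM3 32 and SLITRK5, a neuronal membrane protein gene, 26. PCDH9 had 28 in GM12878, 6 in K562 and 8 in HFF1. SLITRK5 had 31 in GM12878, none in K562 and 1 in HFF1. PCDH9, SPRY2 and SLITRK5 all lie on chromosome 13.

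**Figure D5:**
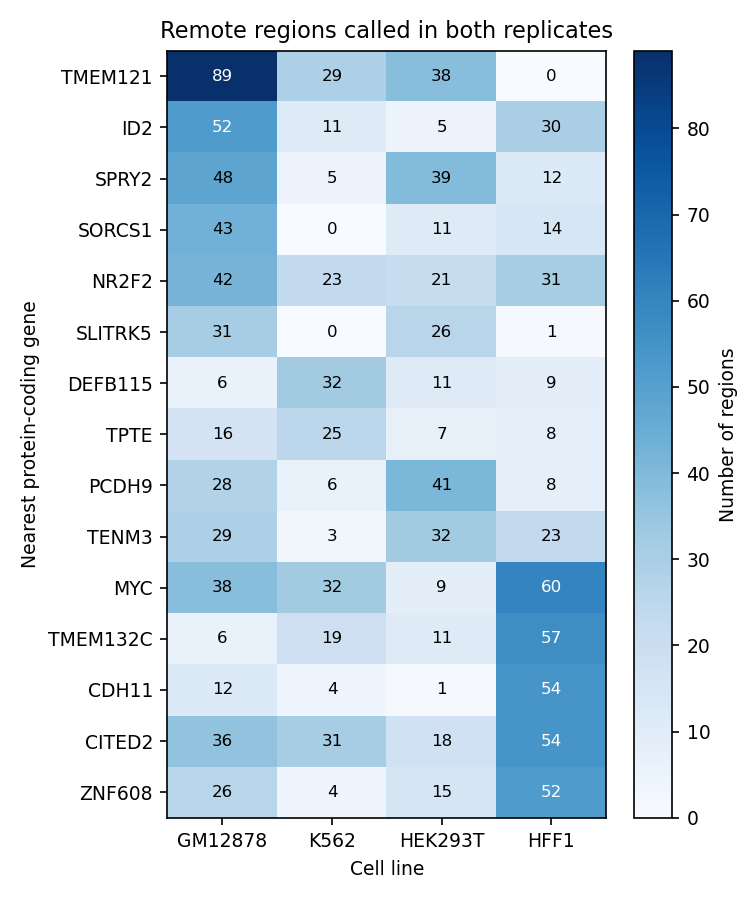
Number of remote regions called in both replicates of each line (columns) for the protein-coding genes (rows) that were among the 5 with the most in at least 1 line, with the count printed in each cell and darker blue for more. TMEM121 in GM12878 has the highest count, 89, and HFF1 has 60 at MYC and 0 at TMEM121.

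Gene lists describe the same counts by role, per Mb of remote territory nearest to their members. Over all 2519 genes the density of called regions was 11.3 per Mb in GM12878, 5.45 in K562, 5.91 in HEK293T and 14.2 in HFF1. For 23 of 25 adhesion genes that border large deserts (cadherins, protocadherins, SLITRK genes and others), the density was 8.98 in GM12878, 1.53 in K562, 6.72 in HEK293T and 4.33 in HFF1. HEK293T, the line with the shallowest libraries, was the only one above its density over all genes. Of its 264 regions at the list, 41 were at PCDH9, 26 at SLITRK5 and 21 each at SLITRK1 and SLITRK6, all on chromosome 13. PCDH20 and PCDH17, also on chromosome 13, had 6 and 0. Remote peaks of HEK293T were at 1.77 times their average on that chromosome. Without these chromosome 13 genes its density at the list falls below its 5.91 over all genes. Among members on other chromosomes, TENM3 had 32 regions in HEK293T and CDH9 had 21. Of the 23 genes, 22 had a called region in HEK293T and 22 in GM12878, but 17 in HFF1 and 16 in K562. Their median remote territory was 1.64 Mb, against 0.129 Mb over all genes.

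Within that list CDH9 had 37 regions in GM12878, 21 in HEK293T, 7 in K562 and 3 in HFF1. PCDH7 had 37, 16, 5 and 6 in the same order. SLITRK6 had 15 in GM12878, 21 in HEK293T, none in K562 and 5 in HFF1. CDH11 and CDH2, with 54 and 23 in HFF1, went the other way from most of the list.

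For 18 of 24 fibroblast and mesenchymal genes with remote territory, HFF1 had 50.9 called regions per Mb, against 14.2 in GM12878, 6.08 in K562 and 7.85 in HEK293T. HFF1 had a called region at 16 of the 18 (88.9%), against 62.9% of all 2519 genes, and GM12878 had one at 10, K562 at 8 and HEK293T at 10. THBS1, which encodes the matrix protein thrombospondin 1, had 44 regions in HFF1, 11 in GM12878, 8 in K562 and 2 in HEK293T. IGFBP3, an insulin-like growth factor binding protein gene, had 34, 17, 0 and 3. FOXF1, a mesenchymal forkhead factor gene, had 22, of which 21 were specific to HFF1, and 1 in each of the other lines. POSTN, TWIST2 and WNT5A had 7, 11 and 8 in HFF1, with no region of POSTN or WNT5A called in another line. Not all members favoured HFF1. HAND2 had 0 regions in HFF1, 5 in HEK293T and 1 each in GM12878 and K562. EN1 had 6 in K562 and 6 in HFF1.

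For 60 of 67 developmental regulators known for large flanking deserts, the densities were 9.01 per Mb in GM12878, 4.41 in K562, 6.46 in HEK293T and 16.4 in HFF1, not far from those over all genes. Single members differed widely. TBX3, a T-box factor gene, had 36 regions in HFF1 and 0, 1 and 1 in GM12878, K562 and HEK293T. NR2F1 had 34 in HFF1 and 17 in HEK293T but none in K562. TFAP2B, an AP-2 factor gene, was the reverse, with 14 regions in K562, 3 in GM12878 and none in HEK293T or HFF1. DACH1 had 16 in GM12878, 15 in HEK293T, 0 in K562 and 1 in HFF1.

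HFF1 had the highest density in each of the remaining lists. The 8 B-lymphoid genes with remote territory had 30.7 regions per Mb in GM12878, above the 11.3 over all genes, and 45.1 in HFF1. Relative to its own density over all genes this was 3.18 times in HFF1, 2.72 times in GM12878, 2.35 times in K562 and 1.25 times in HEK293T. ETS1 had 33 regions in HFF1 and 14 in GM12878, and EBF1 17 and 9. MEF2C had 27 in GM12878 and 21 in HFF1. For 5 erythroid and megakaryocytic genes the densities were 13.7 in K562, 20.2 in GM12878 and 30.4 in HFF1, with MYC providing 32 of the 40 regions of K562. Relative to all genes of the same line K562 was the highest for this list, with 2.51 times, followed by HFF1 with 2.14, GM12878 with 1.78 and HEK293T with 0.867 times. This rank rests on MYC, which had 60 regions in HFF1. BCL11A, CCND2, KIT and MEIS1 had 1, 2, 4 and 1 in K562, against 0, 4, 11 and 14 in HFF1 and 5, 12, 0 and 4 in GM12878. Over these 4 genes, without MYC, K562 falls below its own density over all genes. It then also lies below HFF1 and GM12878 relative to all genes of the same line. For 11 kidney development genes HEK293T had 8.03 per Mb, 1.36 times its density over all genes, and HFF1 had 23.3, 1.64 times its own, where OSR1 had 28 regions and CITED2 54.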

How the data were processed

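The deposited files are peak lists of bulk ATAC-seq libraries, 1 per library, so replicates were not pooled. Per the submitters' processing notes, cutadapt 3.2, Bowtie2 2.4.2, Picard and MACS2 2.2.7.1 were used with hg38 for human, with no role given for each. The authors' values per peak are a fold (a linear ratio over local background), −log10 p-values, −log10 q-values and a score derived from the latter. Such values served to rank, filter or describe the peaks of 1 list and were not set against those of another.

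Distances ran from the summit to gene bodies of GENCODE release 44. Peaks overlapped when they shared at least 1 bp. Pileup and background were solved from fold and −log10 p for 100% of autosomal peaks. The lists hold no read totals, so counting error was not estimated. Lines were compared by eta squared over all 105 pairings of 8 libraries, and remote with near intergenic peaks by sign flips over 4 lines, with Benjamini-Hochberg adjustment over 13 and 4 tests. No test compares single lines. Transfer RNA genes came from the RefSeq annotation of GRCh38.p14. Between 41 and 84 intervals were identical in the replicates of a line, so none was a repeated list. Functions were checked on simulated peaks. Python 3.11.15, NumPy 2.4.6, SciPy 1.17.1 and Matplotlib 3.10.9 were used.

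Members, motifs and gene lists were chosen with earlier results of these data known. Genes are named when among the 5 with the most called remote regions of a line, or when in a list and nearest to at least 5. Named regions are the 3 best by rank of fold in each set, the 2 largest clusters per line and the 5 richest stretches. Alternatives covered the distance, the annotation, the q-value, list length, gaps, overlap, clustering distance, motif window, each library left out and a replicate block. Thinning to the HEK293T background level and leaving out immunoglobulin and T-cell receptor loci were added after the data had been seen.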

Additional observations from a re-analysis of the deposited data

Results flagged for a closer look

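Remote peaks on chromosome X were outside the comparisons, which used autosomes. With the same distance rule GM12878 had 392 and 394, K562 177 and 157, HEK293T 276 and 296, and HFF1 258 and 245. Per Mb of remote territory on X this was 0.275 and 0.277 times the autosomal remote density in HFF1, 0.435 and 0.452 times in K562, 0.564 and 0.553 times in GM12878, and 0.653 and 0.711 times in HEK293T. HFF1, which had the most remote peaks on the autosomes, had fewer on X than GM12878 and HEK293T. Peaks of any kind on X numbered 2815 and 2641 in HFF1, 3057 and 3084 in GM12878, 2350 and 2063 in K562, and 1956 and 1954 in HEK293T. HFF1 was thus below GM12878 over all peaks on X as well. The number of X copies per line was not taken into account.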

How the results depend on the processing

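Of 446 recomputed values of 25 results, 403 stayed on their side of the threshold, with the same sign for differences, or, for counts, within 1.5 times. Eta squared has no direction, so the order of the lines was followed separately for the number, share, sharing and crowding of remote peaks and for 4 motifs. It turned for the number with 50 kb, any annotated gene and 40000 peaks, for the share with 200 kb and any annotated gene, for sharing with 40000 peaks and thinning, for crowding with any annotated gene and 40000 peaks, for CTCF with 40000 peaks, and for AP-1, GATA and IRF with any annotated gene. The other changes were as follows. The remote minus near intergenic difference in median log2 fold was positive with 50 kb (0.0141), -log10 q of at least 5 (0.0115), 40000 peaks per library (0.0800) and thinning (0.0312), and ran from -0.00375 to 0.00226 with a library left out. The CTCF difference between lines gave eta squared 0.944 (exact permutation p = 0.0667) with distance from any annotated gene. With the replicate block, RUNX gave 0.997 and PU.1 0.998 (exact permutation p = 0.0833 each), and the 11 other line differences stayed at p = 0.0417, the smallest possible. The numbers name no shared culture or day.

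Counts of called regions depend on the distance. With 50 kb, called regions numbered 13500 in GM12878, 7499 in K562 and 17511 in HFF1, and 2901 were specific to K562. With 200 kb, called and specific regions numbered 5237 and 3125 in GM12878, 2061 and 997 in K562, 5734 and 4310 in HFF1, and 3015 were called in HEK293T. With any annotated gene they were 906 and 538 in GM12878, 292 and 142 in K562, 592 and 248 in HEK293T, and 827 and 621 in HFF1. With 40000 peaks they were 2590 and 1417 in GM12878, 1991 and 885 in K562, and 2845 and 2006 in HFF1. After thinning they were 5358 and 2876 in GM12878, 1908 and 736 in K562, and 5037 and 3460 in HFF1. With a library left out, specific regions ran from 1850 to 2904 in K562, the highest without K562 replicate 2, and from 1463 to 2441 in HEK293T, where leaving out either HEK293T library gave 2441 or 2440, because a lone library then makes the call. Depth limits HEK293T most, and 2 libraries per line limit every test.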
